A study of Mus musculus with 32 samples.

Results

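Dexamethasone (Dex), a synthetic glucocorticoid, was compared with no Dex at day 0 in mouse embryonic stem cells that carry a METTL3 fusion. The comparison rests on 4 libraries of the 32 in the series, chosen by their titles: 2 of the fusion line with Dex at 10 µM and 2 of the same line without it. The fusion line is the Rx:GFP stem cell line with Mettl3 knocked out, into which wild-type METTL3 joined to a domain the labels call GRBD was put back as an overexpression construct; the groups with and without Dex share this genotype. The series' design text places the fusion protein in the cytosol without Dex and in the nucleus with Dex. The other day 0 groups used here are WT, which is the untreated Rx:GFP line, and KO, which is that line with Mettl3 knocked out, with 2 libraries each. Later days, which serve only to show where day 0 differs, are retinal organoids at days 2, 4 and 6 grown with AGN at 0.1 µM, with the fusion line again with or without Dex at 10 µM. The treatment text lists Dex for 2, 4 and 6 days, whereas the day 0 libraries are also labelled as treated, so how long the stem cells were exposed is not given. Whether a line is 1 clone and whether duplicates were separate cultures is not stated. The duplicates went through separate library preparations. In the main fit p-values measure only the spread between duplicate libraries, estimated over all 16 groups of the series and not from the day 0 groups alone. No group without the fusion is labelled as given Dex, so an effect of Dex itself and an effect of moving the fusion cannot be told apart.

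METTL3 is the catalytic subunit of the nuclear complex that writes N6-methyladenosine (m6A) on messenger RNA, and in stem cells m6A is known for limiting how long many transcripts last. Dex binds the glucocorticoid receptor, the product of Nr3c1, which then enters the nucleus and acts as a transcription factor on genes such as Fkbp5, Sgk1 and Tsc22d3. Proteins joined to the hormone-binding part of a steroid receptor are held outside the nucleus until the hormone arrives, a common way to make a nuclear protein inducible.

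Levels are deposited FPKM values, the fragments of a gene scaled to its transcript length and to the mapped fragments of the library. The 4 libraries held an estimated 32.35 to 35.3 M fragments, at which 3 fragments on a 2 kb transcript equal 0.0492 to 0.0535 FPKM. Over the 16276 tested genes the duplicates correlated at r = 0.994 in both groups. Mettl3 (chromosome 14, 52294841 to 52305128, minus strand) was at 68.5 and 71.8 FPKM without Dex and 75.1 and 75.01 FPKM with Dex, above the means of 34.98 FPKM in WT and 43.4 FPKM in KO. All 4 fusion libraries lay above WT and KO. The KO libraries were not lower than WT in Mettl3, so the knockout is known here from the labels alone. Mettl3 did not pass the test between Dex and no Dex (log2 change 0.10 ± 0.06, limma adjusted p = 0.231). The stem cell markers were present in every library: Pou5f1, Sox2, Nanog, Zfp42, Esrrb, Dppa5a and Utf1 summed to 4292 and 4302 FPKM without Dex and 4360 and 4366 FPKM with Dex.

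Many genes differed between Dex and no Dex at day 0, most by small amounts. By limma on log2(FPKM + 1), 7069 of 16276 genes (43.4%) passed a Benjamini-Hochberg adjusted p of 0.05, 4449 higher with Dex (27.3%) and 2620 lower (16.1%). Of the calls, 83.5% changed by less than 0.5 on the log2 scale, and 81 genes (0.498% of those tested) changed by at least 1, 51 up (0.313%) and 30 down (0.184%). The median change of all tested genes was 0.04. Errors after ± are standard errors of the fit over all 32 libraries, with 2 in each group, so they are not the spread of the day 0 duplicates alone. The scale understates changes of low genes. The groups' libraries were fully separated for 7046 of the calls and for 67.9% of all tested genes. Calls that were higher made up 62.9% in the deposited values. Rescaling by medians of ratios called 43.5% of genes, 53.1% of them higher, and shifted the median of all genes by -0.03.

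The direction of change moved with transcript length and base composition. Among 8011 protein-coding genes with a mean of at least 5 FPKM, the fifth with the shortest transcripts had a median change of -0.14 and the fifth with the longest 0.18; the fifth poorest in GC had 0.16 and the richest -0.08. Across these genes the Spearman correlation of the change was 0.39 with length and -0.32 with GC, a description over genes of the same 4 libraries. KO against WT at day 0, from other libraries, ran the opposite way with length, at -0.32, but hardly moved with GC, at 0.09. A fit with each library corrected for length and GC, added after the data were seen, called 6486 of 16251 genes (39.9%), of which 54.1% were higher. Day 0 counts or medians from that fit stand beside each gene list below as corrected values, and corrected changes beside single genes where they differ by over 1.5 times.

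**Figure D1:**
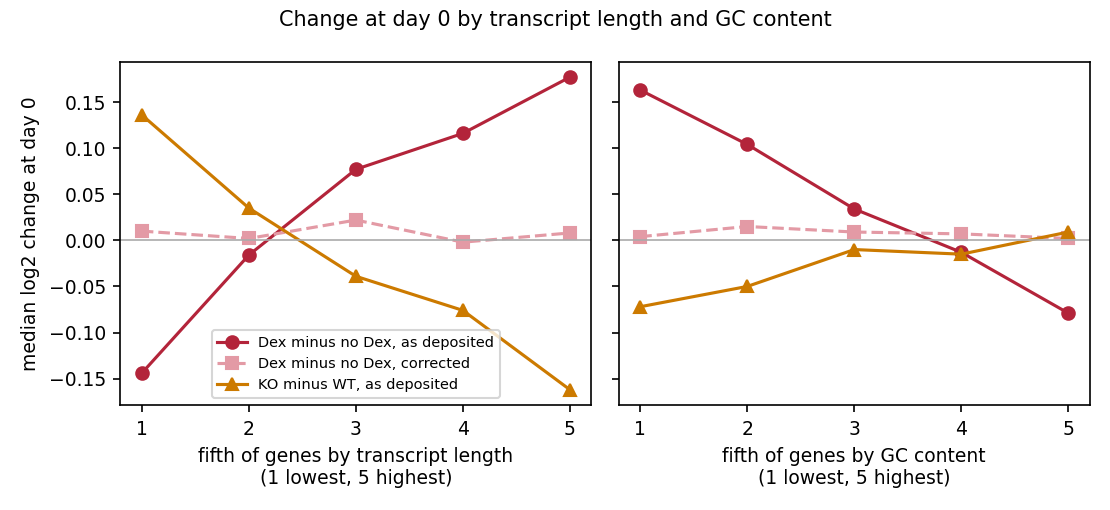
Median log2 change at day 0 (vertical axis) in 5 equal groups of 8011 protein-coding genes ordered by transcript length (left) or GC content (right). Circles are Dex minus no Dex as deposited, squares the same after correction and triangles KO minus WT; the uncorrected Dex line climbs from -0.14 to 0.18 with length and falls from 0.16 to -0.08 with GC, while the corrected medians reach at most 0.02.

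The largest rises among genes with an established symbol, fully separated libraries and at least 2 FPKM in the higher group included muscle-type actins and their partners. Acta2, smooth muscle actin (chromosome 19, 34241090 to 34255590, minus strand), was at 1.82 and 1.84 FPKM without Dex and 6.98 and 8.13 FPKM with Dex (log2 change 1.59 ± 0.09, limma adjusted p = 4.76e-11). Vcl, the focal adhesion protein vinculin (chromosome 14, 20929398 to 21033676, plus strand), was at 1.64 and 1.28 FPKM without Dex and 5.12 and 5.06 FPKM with Dex (log2 change 1.31 ± 0.06, adjusted p = 1.24e-11 by limma). Acta1, skeletal muscle actin, was at 0.61 and 0.75 FPKM without Dex and 3.11 and 2.13 FPKM with Dex, a rise of 1.09 ± 0.11. Separation of the libraries was a condition of the choice of these genes and adds no support. Actins are near-identical in sequence, so reads can be shared between Acta1 and Acta2. Neat1, the long noncoding RNA that builds nuclear paraspeckles (chromosome 19, 5824708 to 5845478, minus strand), was at 20.9 and 20.7 FPKM without Dex and 52.7 and 52.1 FPKM with Dex, a rise of 1.29 ± 0.06. Peg3, a paternally expressed zinc finger gene, rose by 1.07 ± 0.04, Adnp, a chromatin regulator, by 1.10 ± 0.11 and Nktr, a cyclophilin-like protein, by 1.07 ± 0.07. Adnp averaged 0.81 FPKM without and 2.9 FPKM with Dex, against 12.3 in WT and 7.82 in KO. With Dex, Nktr averaged 17.2 FPKM (32.1 in WT, 18.3 in KO) and Vcl 5.09 FPKM (11.4 in WT, 6.8 in KO). The Dex means of Acta2, Acta1 and Peg3 lay instead above WT, at 7.6, 2.62 and 6.17 FPKM against 5.29, 2.27 and 5.67. For Acta1 this difference from WT did not pass (limma adjusted p = 0.349), and its Dex libraries overlapped those of WT, at 2.12 and 2.42 FPKM.

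Several other large rises are less certain. Zfp978 (chromosome 4, 147361303 to 147391004, plus strand) was at 4.76 and 4.32 FPKM without Dex and 17.7 and 19.9 FPKM with Dex and the noncoding Platr16 on the same chromosome at 0.6 and 0.41 FPKM without Dex and 3.10 and 3.85 FPKM with Dex; the means in WT were 74.2 and 13.2 FPKM. Both lie among many similar zinc finger genes and pseudogenes, between which reads can be split. For Septin2, a cytoskeletal GTPase, the row that rose was at 6.18 and 6.68 FPKM without Dex and 15.8 and 15.5 FPKM with Dex, whereas a second row with the same symbol and nearly the same position was at 54.8 and 54.4 FPKM without Dex and 60.5 and 56.2 FPKM with Dex and did not pass (adjusted p = 0.125 by limma). Tmem254c was at 0.07 and 0.35 FPKM without Dex and 6.34 and 0.56 FPKM with Dex, a rise of 1.49 ± 0.51 that 1 library decides: it did not pass with any of the 4 libraries left out, and was 0.38 without the first Dex library.

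The largest falls were in part of low or uncertain genes. Rpgrip1, a cilium gene (chromosome 14, 52110704 to 52163546, plus strand), was at 36.6 and 36.03 FPKM without Dex and 7.39 and 8.50 FPKM with Dex, against means of 1.38 FPKM in WT and 1.10 FPKM in KO, a log2 change of -2.06 ± 0.32 (limma adjusted p = 3.59e-05). Its end overlaps Supt16 on the other strand, which was at 36.2 and 36.6 FPKM without Dex and 53.1 and 53.7 FPKM with Dex, so reads of the pair may be mixed. Exosc6, a subunit of the RNA exosome, was at 69.04 and 74.01 FPKM without Dex and 30.2 and 34.1 FPKM with Dex but was listed at 0 in all 4 WT and KO libraries, and an exact 0 can be a failed estimate. Bc1, a short neuronal RNA, was at 13.6 and 39.4 FPKM without Dex and listed at 0 with Dex; its annotated transcript is 168 nt, shorter than the estimated fragments, which makes its level unreliable. Commd1b, a close copy of another gene, was at 2.98 and 2.07 FPKM without Dex and listed at 0 with Dex.

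Other falls came from genes at moderate levels. Fam89b was at 34.2 and 32.1 FPKM without Dex and 16.2 and 15.4 FPKM with Dex, a change of -1.02 ± 0.09. Prr7, a membrane protein with proline-rich stretches, was at 15.5 and 16.1 FPKM without Dex and 7.04 and 6.95 FPKM with Dex, a change of -1.07 ± 0.05, and -0.70 corrected. Grrp1 was at 20.04 and 20.8 FPKM without Dex and 9.31 and 9.93 FPKM with Dex, a change of -1.01 ± 0.08, and -0.66 corrected. These falls, too, were chosen among genes with separated libraries. Cidea, a lipid droplet protein, fell by 1.14 ± 0.11, Ccdc106 by 1.16 ± 0.13, AU022252 by 1.02 ± 0.12, Ly6k by 1.04 ± 0.15 and the noncoding Hotairm1 of the HoxA cluster by 1.69 ± 0.41; Hotairm1 did not pass with a pseudocount of 0.1 (-2.48).

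Genes of cholesterol synthesis rose together. Cells make cholesterol from acetyl-CoA through the mevalonate pathway, and the transcription factor SREBP2, the product of Srebf2, switches its enzymes on when sterols are scarce, while INSIG1 holds SREBP2 back. Of 23 genes listed, 22 were higher with Dex and 0 were lower, with a median change of 0.55 against 0.04 for all tested genes, of which 43.4% passed. After rescaling 21 passed, all higher (median 0.50), and 21 with the correction for length and GC (median 0.46). For all 23 the groups' libraries were fully separated, as they were for 67.9% of all tested genes.

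Early enzymes of the pathway rose. Hmgcs1, an early synthase of the pathway (chromosome 13, 119690379 to 119708260, plus strand), was at 40.6 and 39.8 FPKM without Dex and 73.9 and 72.1 FPKM with Dex (log2 change 0.84 ± 0.02, limma adjusted p = 7.02e-15). Idi1, the isoprenoid isomerase, rose by 0.60 ± 0.03, and Fdps, which makes farnesyl diphosphate, was at 222 and 233 FPKM without Dex and 353 and 351 FPKM with Dex and rose by 0.63 ± 0.02. Pmvk, the phosphomevalonate kinase, rose least, by 0.13 ± 0.05 (adjusted p = 0.0452 by limma), and did not pass with any of the 4 libraries left out or after rescaling (0.07); corrected, it was 0.34 and passed.

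Most of the later, sterol-forming steps moved the same way. Sqle, the squalene epoxidase (chromosome 15, 59315077 to 59331192, plus strand), was at 24.1 and 24.8 FPKM without Dex and 47.2 and 47.3 FPKM with Dex (log2 change 0.92 ± 0.03, limma adjusted p = 5.09e-14). Lss, which closes the sterol rings, was at 11.7 and 12.4 FPKM without Dex and 22.7 and 22.9 FPKM with Dex and rose by 0.87 ± 0.06; Cyp51, the lanosterol demethylase, was at 16.6 and 15.6 FPKM without Dex and 28.1 and 29.6 FPKM with Dex and rose by 0.80 ± 0.04. In each the Dex libraries were the higher pair. Ebp, a sterol isomerase, was at 23.6 and 25.2 FPKM without Dex and 20.4 and 22.8 FPKM with Dex and did not pass (log2 change -0.17 ± 0.09, limma adjusted p = 0.152).

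Regulators of the pathway rose as well. Insig1 (chromosome 5, 28071363 to 28078662, plus strand) was at 16.7 and 17.98 FPKM without Dex and 36.2 and 34.6 FPKM with Dex, a rise of 0.99 ± 0.04 (limma adjusted p = 5.68e-13). Srebf2 rose by 0.41 ± 0.04.

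**Figure D2:**
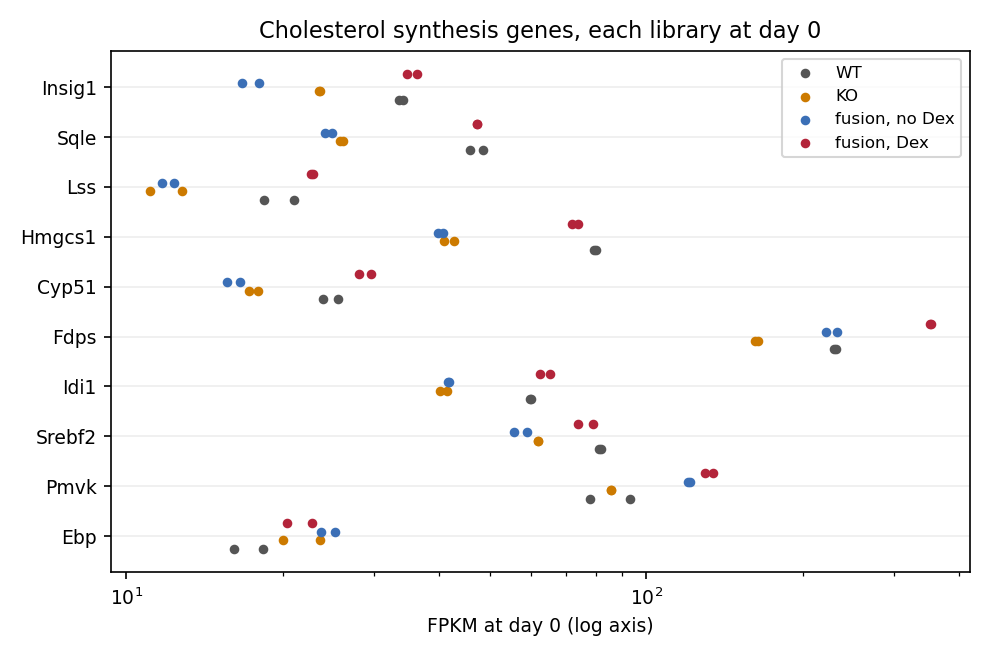
FPKM at day 0 (log axis) of 10 cholesterol synthesis genes, ordered by their change with Dex; each point is 1 library of WT, KO, the fusion line without Dex or the fusion line with Dex. For Insig1 the 2 libraries without Dex lie at 16.7 and 17.98 FPKM, below KO, and those with Dex at 36.2 and 34.6 FPKM, above WT.

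SREBP2 binds sterol regulatory elements, and the promoter of Hmgcs1 is shown because it is the member of the list that holds the searched core, TCACNCCAC, on either strand within 250 bases before an annotated start. RefSeq promoters (GRCm38.p6) were found for 15 of the 23 genes; 1 of the 15 held the core, and 1.33% of 11236 tested genes with a promoter did. The match, in capitals, begins 137 bases before the start, on the strand of the gene, in chr13:119690101-119690350, plus strand. A match describes letters and not binding.
Hmgcs1: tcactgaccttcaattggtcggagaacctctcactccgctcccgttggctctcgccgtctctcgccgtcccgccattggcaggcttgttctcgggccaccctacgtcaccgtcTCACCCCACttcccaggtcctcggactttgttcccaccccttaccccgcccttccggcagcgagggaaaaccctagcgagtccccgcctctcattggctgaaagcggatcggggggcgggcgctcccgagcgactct

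Cytoskeleton and matrix genes were also higher with Dex. Of 20 tested, 15 were higher and 0 lower, with a median of 0.29 (0.23 rescaled, 0.33 corrected, with 15 higher and 0 lower in the corrected fit). Among all tested genes 27.3% were higher and 16.1% lower. A fit of the compared groups alone called 10 of them. Tagln, the actin-binding transgelin (chromosome 9, 45929619 to 45936058, minus strand), was at 5.16 and 5.05 FPKM without Dex and 11.6 and 11.3 FPKM with Dex, a rise of 1.03 ± 0.17 (limma adjusted p = 7.17e-05). Ccn2, a secreted matricellular protein (chromosome 10, 24595442 to 24598683, plus strand), was at 8.32 and 8.48 FPKM without Dex and 16.4 and 17.2 FPKM with Dex, a rise of 0.92 ± 0.07 (limma adjusted p = 4.90e-09). The Dex libraries were above the others for both genes. Anxa2 rose by 0.51 ± 0.07, the tropomyosin Tpm1 by 0.40 ± 0.03 and the intermediate filament gene Vim by 0.18 ± 0.03 (0.09 corrected). Col1a2, a collagen of fibroblasts, rose by 0.67 ± 0.08 from a very low level (0.35 and 0.26 FPKM without Dex and 1.03 and 1.13 FPKM with Dex). Of 7 fibroblast markers, 6 were under 1 FPKM without Dex and 5 with Dex, Lum was listed at 0 in all 4 libraries, and their sum was 4.28 and 4.59 FPKM without and 4.04 and 4.29 FPKM with Dex; their part in the rise was not tested.

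DNA methylation genes rose in part. Of 12 tested, 8 were higher and 1 lower, with a median of 0.35 (0.30 rescaled, and 0.23 corrected with 6 higher and 1 lower). The shares of all tested genes were 27.3% higher and 16.1% lower. Dnmt3b, a methyltransferase that sets new DNA methylation (chromosome 2, 153649450 to 153687730, plus strand), was at 21.8 and 22.7 FPKM without Dex and 43.1 and 44.9 FPKM with Dex (log2 change 0.95 ± 0.03, limma adjusted p = 6.56e-15). Dnmt3a, the related enzyme (chromosome 12, 3806007 to 3914443, plus strand), was at 48.7 and 50.9 FPKM without Dex and 80.7 and 84.9 FPKM with Dex (log2 change 0.72 ± 0.05, limma adjusted p = 1.64e-09). Both enzymes had Dex libraries far from those without Dex. Their cofactor Dnmt3l rose by 0.41 ± 0.06, the maintenance enzyme Dnmt1 by 0.39 ± 0.02 and its partner Uhrf1 by 0.34 ± 0.02. The demethylating enzymes Tet1 and Tet2 rose by 0.37 ± 0.08 and 0.46 ± 0.10, and neither passed in the corrected fit (0.08 and 0.24). Mbd3, a subunit of the NuRD repressor, fell by 0.44 ± 0.07 (-0.17 corrected).

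Polycomb proteins silence developmental genes by modifying histones. Of 18 Polycomb and related chromatin genes, 14 were higher and 1 lower, with a median of 0.28 (0.22 rescaled, and 0.14 corrected with 12 higher and 1 lower). Beside this, 27.3% of all tested genes were higher and 16.1% lower. Among the subunits of Polycomb complex PRC2, Eed was at 136 and 143 FPKM without Dex and 218 and 208 FPKM with Dex, a rise of 0.61 ± 0.06 (limma adjusted p = 1.73e-07), and Suz12 at 26.1 and 25.6 FPKM without Dex and 38.5 and 38.1 FPKM with Dex, a rise of 0.55 ± 0.03 (limma adjusted p = 4.99e-11; corrected 0.35). Their catalytic partner Ezh2 rose less, by 0.23 ± 0.04 (0.11 corrected), and did not pass in a fit of the compared groups alone. Jarid2, which helps place PRC2, rose by 0.51 ± 0.04 and Kdm2b, which recruits PRC1 to CpG islands, by 0.55 ± 0.04. Ring1, a ubiquitin ligase of PRC1, was the member that fell, at 32.6 and 29.8 FPKM without Dex and 17.8 and 18.7 FPKM with Dex (log2 change -0.74 ± 0.13).

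Imprinted genes, expressed from 1 parental copy, moved mostly up. Of 20 tested, 13 were higher and 2 lower, with a median of 0.35 (0.30 rescaled, and 0.19 corrected with 11 higher and 3 lower). For all tested genes the shares were 27.3% higher and 16.1% lower. Peg3 (chromosome 7, 6703892 to 6730431, minus strand) was at 2.37 and 2.44 FPKM without Dex and 6.31 and 6.03 FPKM with Dex (log2 change 1.07 ± 0.04, limma adjusted p = 1.64e-13). Cdkn1c, a cyclin-dependent kinase inhibitor, rose by 0.55 ± 0.11, the noncoding H19 by 0.49 ± 0.09, and the noncoding neighbours Rian and Meg3 by 0.51 ± 0.02 and 0.34 ± 0.02 (0.25 and 0.12 corrected). Phlda2, a growth inhibitor of the placenta, was at 32.98 and 34.4 FPKM without Dex and 18.7 and 16.7 FPKM with Dex and fell by 0.89 ± 0.10. Dlk1, a Notch-related ligand next to Meg3, fell by 0.43 ± 0.12 and no longer passed without the second library lacking Dex (-0.31) or without the first Dex library (-0.31), or in a fit of the compared groups alone.

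Pluripotency factors shifted in both directions. Of 10 core genes 5 were higher and 2 lower (median 0.23; corrected 4 and 1), and of 16 naive genes 8 were higher and 1 lower (median 0.24; corrected 7 and 0; 4 and 1 with a pseudocount of 0.1), where 27.3% of all tested genes were higher and 16.1% lower. Pou5f1, encoding OCT4, was at 1049 and 1079 FPKM without Dex and 913 and 928 FPKM with Dex, a fall of 0.21 ± 0.05 (limma adjusted p = 0.00282) that was -0.02 and did not pass after correction. Utf1 fell by 0.37 ± 0.05 and likewise did not pass after correction (-0.03). Sox2 was at 206 and 200.5 FPKM without Dex and 241 and 234 FPKM with Dex, a rise of 0.22 ± 0.04 (limma adjusted p = 0.000195), and Lin28a, an RNA-binding protein, rose by 0.30 ± 0.02. Nanog was at 179 and 175 FPKM without Dex and 175 and 176 FPKM with Dex and did not pass (-0.01 ± 0.04, limma adjusted p = 0.855); Esrrb and Zfp42 did not pass either. Among naive factors Klf5 was at 49.1 and 49.7 FPKM without Dex and 68.4 and 67.3 FPKM with Dex, a rise of 0.45 ± 0.05, Dppa5a rose by 0.37 ± 0.05 and Nr5a2 by 0.42 ± 0.09, the last without passing after correction (0.21). Of 15 genes of formative pluripotency, the state that follows the naive one, 8 were higher and 1 lower (median 0.11; corrected 7 and 2). Besides the DNA methyltransferases, Zic2 rose by 0.53 ± 0.04, Foxd3 by 0.45 ± 0.06 and Otx2 by 0.23 ± 0.03. Tcf15 was the member that fell, at 512 and 526 FPKM without Dex and 328 and 329.9 FPKM with Dex (log2 change -0.66 ± 0.09, limma adjusted p = 4.56e-06; corrected -0.27).

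**Figure D3:**
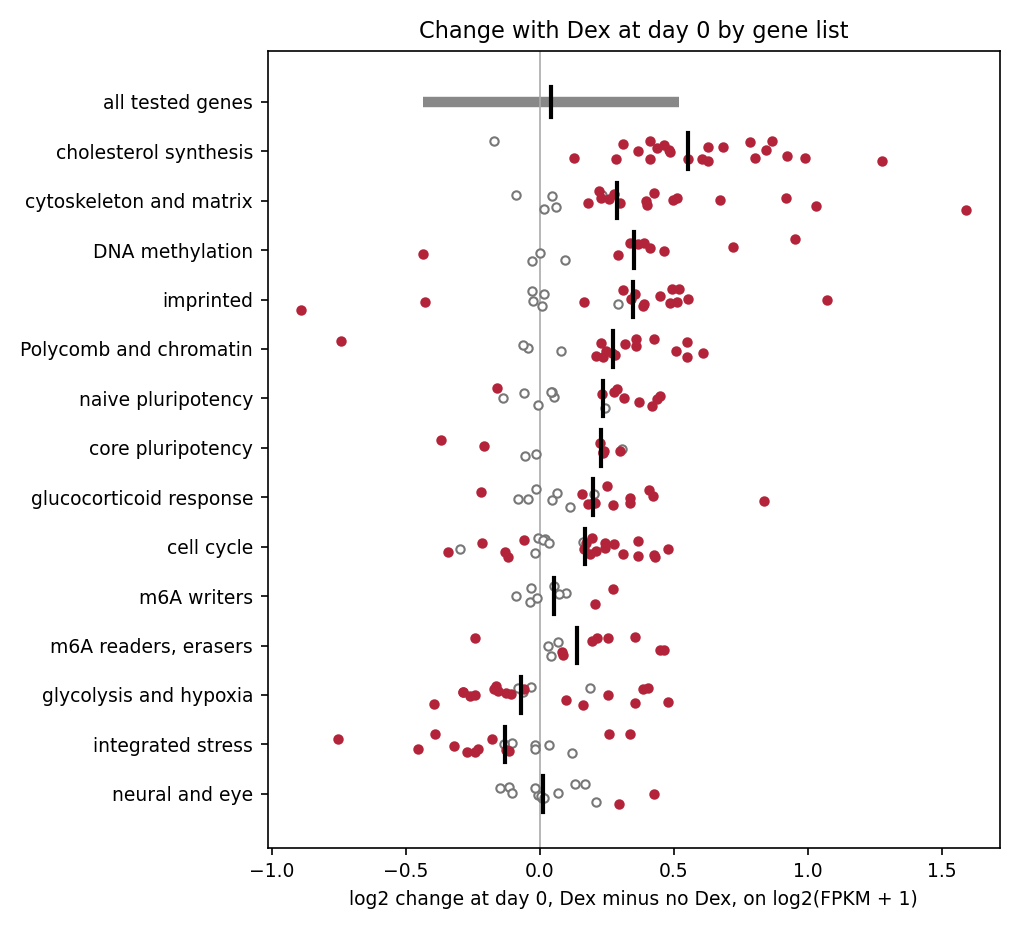
Log2 change at day 0, Dex minus no Dex, of each tested member of 14 gene lists; filled points passed an adjusted p of 0.05 in limma, open points did not, and black bars are medians. The grey bar spans the 5th to 95th percentile of all tested genes, -0.44 to 0.52; cholesterol synthesis has the highest median of the lists drawn, 0.55.

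Known glucocorticoid targets rose in part. The receptor gene Nr3c1 was low, at 1.55 and 1.62 FPKM without Dex and 1.79 and 1.65 FPKM with Dex, and did not pass (limma adjusted p = 0.59). Of 19 tested target and feedback genes 11 were higher and 1 lower, with a median of 0.20, where 27.3% of all tested genes were higher and 16.1% lower. Rescaled, 9 were higher and 1 lower (0.15), and corrected, 12 and 1 (0.23). In KO against WT, neither labelled as given Dex, 0 of these genes were higher and 14 lower (median -0.25), where 29.8% of all tested genes were lower. Of the Dex calls in the list, 10 were called in the opposite direction there. What part this has in the rise was not tested. Sgk1, a serum- and glucocorticoid-induced kinase (chromosome 10, 21882184 to 21999903, plus strand), was at 55.1 and 55.9 FPKM without Dex and 99.2 and 101 FPKM with Dex (log2 change 0.84 ± 0.11, limma adjusted p = 5.76e-06), with both Dex libraries above both without; its mean in untreated WT was 121 FPKM, higher still. Fkbp5, a chaperone of the receptor (chromosome 17, 28399094 to 28517527, minus strand), was at 32.4 and 32.7 FPKM without Dex and 44.04 and 43.8 FPKM with Dex, a rise of 0.42 ± 0.03, while untreated WT had a mean of 57.9 FPKM. Glul, glutamine synthetase, rose by 0.41 ± 0.03, Tsc22d3, encoding GILZ, by 0.34 ± 0.07, Per1, a clock gene, by 0.27 ± 0.06 and Klf9 by 0.18 ± 0.04; Klf9 did not pass after correction (0.04). The metallothionein Mt1 was at 458 and 449 FPKM without Dex and 457 and 441 FPKM with Dex and Mt2 at 1129 and 1124 FPKM without Dex and 1097 and 1089 FPKM with Dex, and neither passed, although Mt1 did in the corrected fit, at 0.18. Angptl4 was the member that fell, by 0.22 ± 0.09 (limma adjusted p = 0.0459), and it did not pass with any of the 4 libraries left out.

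The glucocorticoid receptor binds an inverted repeat, searched here as GNACA, any 3 bases and TGTNC, which reads the same on both strands. Promoters of 15 of the 19 targets were found in RefSeq (GRCm38.p6), and 2 of the 15, Sgk1 and Mt1, held a match within 250 bases before a start, as did 0.36% of 11236 tested genes. They are shown because the genes moved differently, Sgk1 having the largest rise of the list and Mt1 not passing. The 15 genes had 24 such windows, 2 of them with a match. The matches, in capitals, begin 188 bases before a RefSeq start of Sgk1 (chr10:21993640-21993889, plus strand) and 94 bases before a RefSeq start of Mt1 (chr8:94178839-94179088, plus strand). The Sgk1 window lies inside the gene span given above, not at its first base.
Sgk1: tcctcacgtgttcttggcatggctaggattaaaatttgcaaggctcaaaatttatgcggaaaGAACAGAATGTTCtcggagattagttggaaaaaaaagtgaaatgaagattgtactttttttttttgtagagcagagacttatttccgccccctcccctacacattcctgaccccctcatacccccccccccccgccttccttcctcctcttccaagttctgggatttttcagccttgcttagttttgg
Mt1: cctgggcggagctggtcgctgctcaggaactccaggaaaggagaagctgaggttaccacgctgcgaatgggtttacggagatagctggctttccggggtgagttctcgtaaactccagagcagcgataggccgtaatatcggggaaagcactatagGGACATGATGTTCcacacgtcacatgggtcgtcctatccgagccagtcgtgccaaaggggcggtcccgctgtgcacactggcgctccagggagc

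Few m6A writer genes passed. Of 9 writer genes 2 were higher and 0 lower (median 0.05, 0.00 rescaled with 2 higher and 2 lower). Over all tested genes 27.3% were higher and 16.1% lower. Mettl14, the partner subunit of METTL3, was at 18.1 and 17.5 FPKM without Dex and 21.2 and 20.2 FPKM with Dex, a rise of 0.20 ± 0.04 (limma adjusted p = 0.00089), and Rbm15b rose by 0.27 ± 0.06 (0.17 corrected), which did not pass in a fit of the compared groups alone. These transcripts are long, with a median of 6151 nt against 2918 nt for all tested genes, and after the correction for length and GC 1 was higher and 6 were lower (median -0.20), with Mettl14 at -0.03 and Wtap, the scaffold of the complex, at -0.20. The direction of this list therefore turned with the correction. Of 12 readers and erasers 8 were higher and 1 lower as deposited (median 0.14) and 2 higher and 3 lower after correction (-0.04); a fit of the compared groups alone called 3 higher and 1 lower. Igf2bp3, an RNA-binding protein of the reader class, rose by 0.46 ± 0.04 (0.30 corrected) and Ythdc1, the nuclear reader, fell by 0.24 ± 0.04 (-0.49 corrected).

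Integrated stress and glycolysis genes were lower more often than higher. The counts in this paragraph stand beside 27.3% higher and 16.1% lower among all tested genes. Of 18 targets of the integrated stress response, the ATF4 program, 2 were higher and 10 lower (median -0.13, -0.18 rescaled, and -0.12 corrected with 2 and 8). Cebpb, a transcription factor, was at 32.8 and 33.5 FPKM without Dex and 18.1 and 20.5 FPKM with Dex, a fall of 0.75 ± 0.09 (limma adjusted p = 1.43e-06; corrected -0.41). Phgdh, the first enzyme of serine synthesis, fell by 0.32 ± 0.03, Nupr1 by 0.46 ± 0.12, and the amino acid transporter gene Slc7a3 rose by 0.34 ± 0.07; Nupr1 did not pass without the second library lacking Dex (-0.39) or without the first Dex library (-0.36). Of 22 glycolysis and hypoxia genes 7 were higher and 11 lower (median -0.07, -0.12 rescaled, and -0.01 corrected with 5 and 9; 6 and 7 in a fit of the compared groups alone). Gapdh was at 6665 and 6744 FPKM without Dex and 5453 and 5534 FPKM with Dex, a fall of 0.29 ± 0.02 (limma adjusted p = 8.50e-10), with Tpi1 down by 0.40 ± 0.02 and Ldha by 0.29 ± 0.01, whereas the hypoxia gene Ndrg1 rose by 0.48 ± 0.06. Of 15 endoplasmic reticulum chaperone genes 7 were higher and 7 lower, 4 and 7 after rescaling, 4 and 6 without the second library lacking Dex, and 2 and 6 after correction: Manf fell by 0.60 ± 0.04 and Canx rose by 0.49 ± 0.05 (0.30 corrected). Of 18 p53 targets 10 were higher and 5 lower (8 and 5 corrected, 7 and 3 in a fit of the compared groups alone), with Eda2r up by 0.44 ± 0.05 (0.23 corrected), Pmaip1 up by 0.42 ± 0.05 and Phlda3 down by 0.46 ± 0.07 (-0.17 corrected). Bax fell by 0.35 ± 0.04, which was 0.00 and did not pass after correction.

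Immune, germline and early embryonic lists had shares of called genes near or above the 43.4% of all tested genes. Of 18 interferon-response genes 7 were higher and 5 lower (median 0.10; 8 and 3 corrected; 4 and 4 in a fit of the compared groups alone; 7 and 3 without the first library lacking Dex). The membrane proteins Ifitm1, at 73.5 and 81.5 FPKM without Dex and 160.3 and 163 FPKM with Dex, and Ifitm3, at 108 and 112 FPKM without Dex and 177 and 181 FPKM with Dex, rose by 1.05 ± 0.08 and 0.69 ± 0.09, and Stat2 by 0.60 ± 0.09, whereas the antigen-presentation genes H2-D1 and B2m fell by 0.50 ± 0.06 and 0.49 ± 0.07. Of 18 germline genes 9 were higher and 2 lower (median 0.25; 7 and 2 corrected; 5 and 1 with a pseudocount of 0.1; 5 and 2 in a fit of the compared groups alone): the meiotic gene Hormad1 was at 12.02 and 11.4 FPKM without Dex and 24.1 and 23.5 FPKM with Dex, a rise of 0.97 ± 0.08 (limma adjusted p = 2.19e-08), Dazl rose by 0.77 ± 0.09 and Mael by 0.55 ± 0.08, and Rpl10l, a close copy of a ribosomal protein gene, fell by 0.77 ± 0.08. Of 17 genes of the 2-cell-like state 4 were higher and 3 lower, a share near that of all genes (5 and 3 corrected; 2 and 0 with a pseudocount of 0.1); the near-identical Zscan4 copies split, with Zscan4e up by 0.50 ± 0.07 and Zscan4d down by 0.38 ± 0.09, the latter without passing at a pseudocount of 0.1, and their reads cannot be assigned with certainty.

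Growth-signal and cell cycle genes were mixed, where 27.3% of all tested genes were higher and 16.1% lower. Of 17 immediate early and ERK feedback genes 9 were higher and 4 lower (8 and 3 corrected); Fos was at 2.71 and 2.73 FPKM without Dex and 4.67 and 4.45 FPKM with Dex, a rise of 0.58 ± 0.10, Myc rose by 0.44 ± 0.06, the ERK inhibitor Spry2 by 0.49 ± 0.04, and Etv4 fell by 0.45 ± 0.08. Of 26 cell cycle genes 14 were higher and 5 lower (median 0.17, and 0.06 corrected with 10 and 6), among them Cdk2 up by 0.48 ± 0.04, Mki67 up by 0.42 ± 0.03 (0.22 corrected), the replication helicase gene Mcm2 up by 0.37 ± 0.02 and cyclin D1, Ccnd1, down by 0.34 ± 0.03.

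Lists of other lineages are to be read beside the 43.4% of all tested genes that were called, 27.3% higher and 16.1% lower; the endoderm, trophoblast and BMP lists lie near that share and the others below it. Of 14 neural and eye genes 2 were higher and 0 lower (median 0.01; 1 and 2 corrected); the eGFP reporter row was at or below 0.48 FPKM in all 4 libraries. Of 20 extraembryonic endoderm genes 6 were higher and 2 lower (4 and 3 corrected; 3 and 2 without the first Dex library); Sox17 was at 0.79 and 0.68 FPKM without Dex and 1.22 and 1.65 FPKM with Dex, a rise of 0.48 ± 0.14 that did not pass without the second library lacking Dex (0.44) or without the second Dex library (0.36), or in a fit of the compared groups alone, and the laminin gene Lamb1 rose by 0.48 ± 0.05. Of 11 trophoblast genes 5 were higher and 1 lower (4 and 0 corrected; 3 and 2 in a fit of the compared groups alone), with Sfmbt2 up by 0.72 ± 0.07 and the keratin Krt18 by 0.50 ± 0.08. The 9 endoderm markers summed to 8.76 and 8.06 FPKM without Dex and 8.98 and 8.87 FPKM with Dex, and the 5 trophoblast markers to 12.5 and 12.3 FPKM and to 10.4 and 14.7 FPKM; the highest of these sums holds Gata3 at 4.29 FPKM, against 0.93 in the other Dex library. Their part in these results was not tested. Of 13 Wnt targets 2 were higher and 2 lower, of 13 BMP and TGF-beta targets 4 and 2, and of 8 mesendoderm genes 1 and 1; after correction these were 1 and 3, 3 and 3, and 1 and 0.

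Many day 0 differences ran against those between KO and WT, which come from 4 other libraries. In KO against WT 7849 genes passed (48.2%), 3000 higher (18.4%) and 4849 lower (29.8%). Genes called in both comparisons in opposite directions numbered 4637, or 65.6% of the Dex calls, 59.1% of the KO calls and 28.5% of all tested genes, and 362 were called in the same direction; no test of this overlap was made. Fits of the compared groups alone gave 1851 with opposite directions, and the length and GC correction 4017. Of the 81 genes that changed by at least 1 with Dex, 46 were called in the opposite direction in KO and 0 in the same. In the cholesterol list 1 gene was higher and 19 lower in KO (median -0.47), in the cytoskeleton and matrix list 0 and 15 (-0.30), in DNA methylation 1 and 10 (-0.35) and in Polycomb and chromatin 3 and 11 (-0.19). Corrected, these were 0 and 20, 0 and 14, 1 and 10, and 4 and 9. The glucocorticoid list had 0 higher and 14 lower in KO (-0.25), and 0 and 14 corrected.

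**Figure D4:**
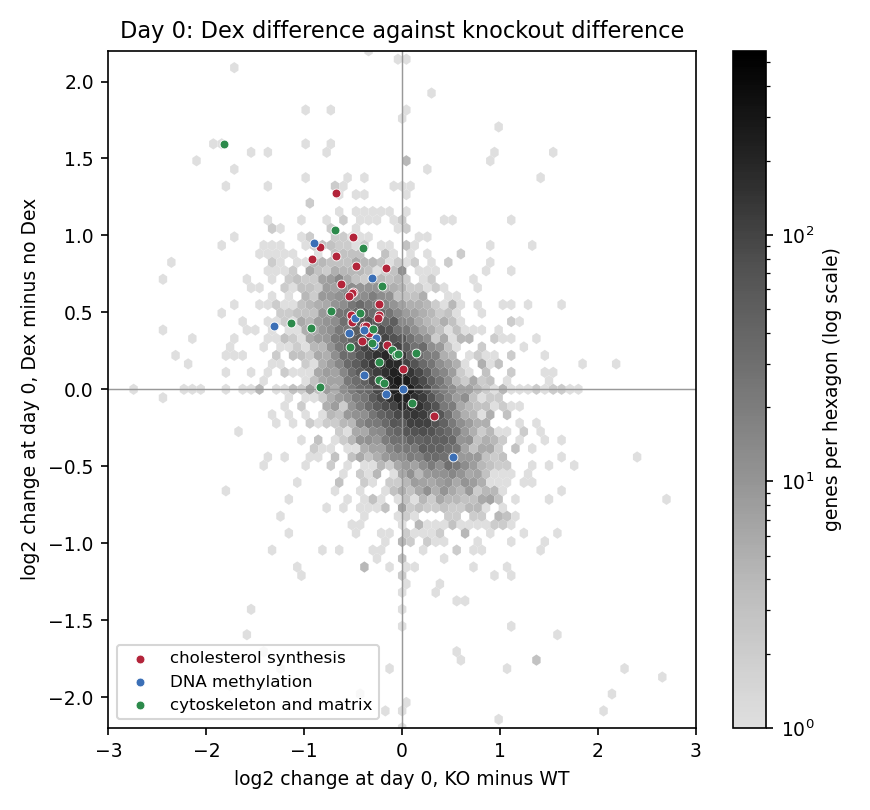
Log2 change at day 0 of KO minus WT (horizontal) against Dex minus no Dex (vertical) for tested genes, as counts per hexagon, with 3 gene lists as coloured points; 15 genes lie outside the axes. The comparisons share no library, and the cloud slopes down, with 4637 genes called in opposite directions.

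Levels in all 4 day 0 groups place these changes. Insig1 averaged 33.7 FPKM in WT and 23.6 FPKM in KO, and in the fusion line 17.3 FPKM without and 35.4 FPKM with the drug. Sqle had 47.2, 25.9, 24.5 and 47.3 FPKM in the same order, and Dnmt3b 60.1, 31.8, 22.2 and 44.01 FPKM. In these 3 genes the group without Dex had the lowest mean of the 4, but they do not stand for their lists. Without Dex against KO, the cholesterol list had 7 genes higher and 8 lower, DNA methylation 3 and 9, and cytoskeleton and matrix 14 and 1. With Dex against WT these were 14 and 4, 2 and 9, and 15 and 0. Shares of all tested genes were not counted for these 2 comparisons. Fdps was instead above WT with Dex, at 352 against 231 FPKM, and Neat1 stayed below it, at 52.4 against 92.4 FPKM. Among falls called in the opposite direction in KO, Mrps34, a mitochondrial ribosomal protein (chromosome 17, 24895116 to 24897502, plus strand), was at 303 and 303 FPKM without Dex and 162 and 159 FPKM with Dex, a fall of 0.91 ± 0.04, with means of 149.5 FPKM in WT and 254 in KO. Bmyc, a Myc relative, fell by 0.97 ± 0.05 and C1qtnf4, a secreted protein, by 0.96 ± 0.11 (-0.57 corrected).

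The Dex difference at day 0 was then set against that at later days by interaction contrasts in the same fit. Across 8011 genes the Spearman correlation of the Dex change with transcript length, 0.39 at day 0, was -0.28, 0.13 and -0.17 at days 2, 4 and 6, and that with GC, -0.32 at day 0, was -0.01, -0.07 and 0.52; their part in the differences between days was not tested beyond the corrected counts below. The Dex difference differed from that at day 0 at an adjusted p of 0.05 for 7319 genes against day 2 (45%), 5661 against day 4 (34.8%) and 7919 against day 6 (48.7%); with the correction these were 6015, 5137 and 6531. Of the cholesterol list 22, 21 and 18 genes differed from the respective day, and 17 from all 3; corrected, 20, 19 and 19 did. Dex against no Dex itself called 3 of that list higher and 10 lower at day 2, where 44.3% of all genes passed, 5 and 8 at day 4 (40.2%) and 8 and 5 at day 6 (42.7%). Corrected, these were 9 and 5, 6 and 7, and 4 and 2, so the balance at day 2 turned. Its uncorrected medians were -0.09, -0.04 and -0.01, beside -0.08, -0.01 and 0.01 for all tested genes. Insig1 changed by -0.09, 0.14 and -0.01 at days 2, 4 and 6, each different from day 0 (limma interaction adjusted p = 2.58e-11, 6.60e-10 and 2.15e-11). Of the 7069 day 0 calls 24.6%, 38.6% and 19.4% were called in the same direction at days 2, 4 and 6, which is 24.1%, 41.6% and 19.7% of the later calls. These were 1736, 2727 and 1368 genes, whereas 2403, 935 and 2314 day 0 calls were called in the opposite direction. Opposite calls thus outnumbered same-direction calls at days 2 and 6 but not at day 4.

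Chromatin genes also differed between days. Of the 18 Polycomb and chromatin genes 16, 15 and 15 differed from days 2, 4 and 6, beside 45%, 34.8% and 48.7% of all tested genes. At day 2, 0 were higher and 15 lower with Dex (median -0.30), where 44.3% of all tested genes passed. Corrected, 12, 12 and 15 differed, and at day 2 1 was higher and 10 lower (median -0.14). Of all 16251 genes in the corrected fit 3077 were higher and 3268 lower at day 2. Dnmt3b changed by 0.27, -0.26 and -0.19 at the later days, each different from day 0 (limma interaction adjusted p = 5.00e-11, 2.45e-14 and 1.65e-14). In the glucocorticoid list 10, 10 and 13 of 19 differed, beside 45%, 34.8% and 48.7% of all genes, and 4 did at all 3 days; corrected, 8, 10 and 10 differed. Its medians at days 2, 4 and 6 were 0.00, 0.12 and 0.24, beside -0.08, -0.01 and 0.01 for all tested genes. Corrected, they were 0.04, 0.16 and 0.06, against 0.23 at day 0. Higher and lower calls were 5 and 5, 8 and 5, and 12 and 0 at these days. The shares of all tested genes called were 44.3%, 40.2% and 42.7%. Corrected, the list had 6 and 3, 10 and 4, and 8 and 0. Of 18 integrated stress genes 2 were higher and 10 lower at day 0, and 2 and 8 corrected. At day 6, 17 were higher and 0 lower, where 42.7% of all tested genes passed, and 17 of 18 differed between those days. Corrected, 17 were higher and 0 lower at day 6, and 18 differed. Of all 16251 genes in that fit 2824 were higher and 3226 lower at day 6. Acta2 rose at day 6 by 1.70, and its change there did not pass the test of a difference from day 0 (limma interaction adjusted p = 0.498).

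**Figure D5:**
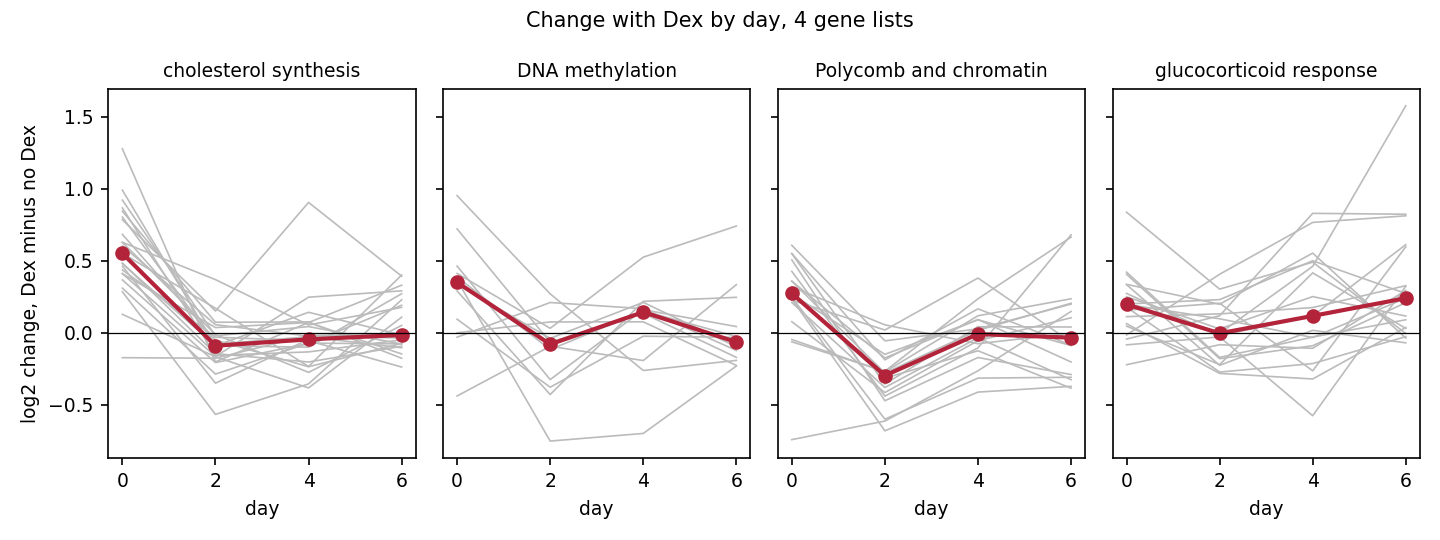
Log2 change with Dex (vertical) at days 0, 2, 4 and 6 (horizontal) for members of 4 gene lists; grey lines are genes and red points are medians. The cholesterol median drops from 0.55 at day 0 to -0.09 at day 2 and stays near 0, and the Polycomb and chromatin median goes from 0.28 to -0.30; values are not corrected for length and GC.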

How the data were processed

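PolyA RNA of 32 libraries was sequenced as paired 150-base reads. Gene levels are FPKM values as deposited by the authors; STAR, Cuffdiff and mm10 are named in the submitters' processing notes, without versions. The depth of a library was estimated from the spacing of low FPKM values; 85.2% to 88.2% of those values came within 0.2 of whole fragments, where random values would give 40%. The fragments of 55492 rows were not recovered as counts, so no count test was run. Of these rows 16276 reached 1 FPKM in at least 2 libraries and were tested.

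Values were transformed to log2(FPKM + 1) and fitted with limma 3.58.1 (R 4.3.3) over all 32 libraries in 16 groups, with 16 residual degrees of freedom and a trended variance. Tests were two-sided, with Benjamini-Hochberg adjustment over all tested genes and a threshold of 0.05. Alternatives were a pseudocount of 0.1, no filter or a mean of at least 5 FPKM, median-of-ratios rescaling, a fit of the compared groups alone, a replicate block, each library left out, and a length and GC correction by loess within each library, the last chosen after seeing the data.

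Positions are from GENCODE M21 (mm10), matched for 99.5% of rows. Named genes are Mettl3, Nr3c1, up to about 6 members of each list (the largest called changes and well-known defining members), the 12 largest rises and 12 largest falls with an established symbol, no overlap and at least 2 FPKM in the higher group, and the 8 largest of each direction also called in the opposite direction in KO against WT. Some genes of the rule are not reported here. Lists and named members were chosen with earlier results of these data known.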

Additional observations from a re-analysis of the deposited data

Results flagged for a closer look

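The difference between Dex and no Dex at day 0 was not the same as at later days for many genes, by a test of the difference itself (limma interaction contrasts, adjusted p of 0.05). It differed from that at day 2 for 7319 genes, from that at day 4 for 5661 genes and from that at day 6 for 7919 genes. Called genes at day 0 that also differed from all 3 later days numbered 2672, of which 2012 were higher with Dex at day 0 and 660 lower. With the length and GC correction the counts were 6015, 5137 and 6531. The Spearman correlation of the Dex change with transcript length was 0.39 at day 0 and -0.28, 0.13 and -0.17 at days 2, 4 and 6, and with GC -0.32 at day 0 and -0.01, -0.07 and 0.52. Whether sample composition, culture or length of exposure plays a part was not tested. Groups of 2 libraries allow no test for a library far from the others.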

How the results depend on the processing

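The count of genes called between Dex and no Dex at day 0 stayed within 1.5 times of 7069 under every alternative, from 4968 in a fit of the compared groups alone to 7247 with no filter, and was 5912 to 6053 with 1 library left out. The count of changes of at least 1 on the log2 scale was 405 with a pseudocount of 0.1 and 36 among genes with a mean of at least 5 FPKM, and 99 to 106 with 1 library left out. Counts of differences from days 2, 4 and 6 were 6679 to 6790, 4842 to 5059 and 7205 to 7393 with 1 library left out. Calls opposite to KO against WT numbered 1851 when each comparison was fitted from its own groups alone, which leaves fewer residual degrees of freedom, and 4060 to 4472 with 1 library left out. Of 130 named genes, Mettl14 (-0.029) and Mt1 (0.18) changed sign with the length and GC correction, and 7 others no longer passed; the cause was not tested. Same-numbered libraries did not pair: their deviations correlated at -0.08 between Dex and no Dex at day 0 and at -0.27 to 0.30 over 120 pairs of groups. With the replicate number as a block 7016 genes were called, 79 of them by at least 1, and 4589 were opposite to KO against WT. After the length and GC correction 4017 were opposite to KO against WT. Depth limits statements on genes under 1 FPKM.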

Other observations

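Families outside the lists, chosen after their values were seen, were ribosomal, respiratory, mitochondrial, histone and zinc finger genes. Of 83 cytosolic ribosomal protein genes 1 was higher and 58 were lower with Dex at day 0, with a median log2 change of -0.12 (limma, 43.4% of all genes called). With the length and GC correction 20 were higher and 24 lower, with a median of 0.02; their transcripts are short, with a median of 1094 nt. Of 46 nuclear genes of respiratory complex I 0 were higher and 32 lower, with a median of -0.19, and -0.07 after correction with 4 higher and 16 lower. Genes of the Cox and Atp5 families, which serve respiration and ATP synthesis, were higher in 2 and lower in 26 of 43 cases (median -0.18), and after correction 10 were higher and 12 lower (median -0.07). Of 13 genes of the mitochondrial genome 3 were higher and 5 lower, with the same counts after correction. Of 6 histone genes 0 were higher and 3 lower, and 0 and 0 after correction. Of 361 zinc finger (Zfp) genes 162 were higher and 23 lower, with a median of 0.18; after correction 96 were higher and 42 lower, with a median of 0.06.

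A stretch of chromosome 4 between 2 of its genes, from 145213463 to 147947314 (mm10), also chosen after its values were seen, holds Zfp978 and many similar zinc finger genes. Of 58 tested genes there 36 were higher with Dex at day 0 and 1 was lower, with a median of 0.46, or 0.34 after the length and GC correction. Among all tested genes 27.3% were higher with Dex and 16.1% lower. In KO against WT 32 of the 58 were lower and 4 higher, with a median of -0.40, where 29.8% of all tested genes were lower and 18.4% higher. With Dex at days 2, 4 and 6 the medians were -0.30, -0.04 and -0.10. Reads of near-identical copies in this stretch cannot be assigned with certainty, and the genes are neighbours rather than independent measurements.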
